A study of Mus musculus with 12 samples.

Results

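Identity genes of mononuclear phagocytes were followed in leukocytes taken from the prostate of tumor-prone mice after T cell transfer, called ACT in the labels. Cells that were in the prostate before the transfer and cells that entered later were not told apart. Of the 9 genes, 5 were taken as markers of resident tissue macrophages (Adgre1, Csf1r, Mertk, Aif1 and Mpeg1). The other 4 were taken as markers of inflammatory monocytes (Lyz2, Cd14, Itgam and Ly6c1). They were chosen by symbol, and a probe was kept when its signal was above background, at a detection p under 0.05, on at least 3 of the 12 arrays. All 17 probes that the array annotation gives to these 9 genes passed, 11 of them for the macrophage markers and 6 for the monocyte markers, out of 11971 genes with a kept probe and 23054 kept probes in all. Each array held RNA of CD45+ cells from the prostate of TRAMP mice of the C57Bl/6 strain, CD45 being a surface marker of leukocytes. TRAMP mice express the T antigens of a simian virus under a promoter of the prostate epithelium and develop prostate cancer. The groups were Tumor+Allo/Y ACT at day 28 (samples 10, 11 and 12), Tumor+Allo/Y ACT at 1 week (samples 7, 8 and 9), Tumor ACT at 1 week (samples 4, 5 and 6) and Allo/Y ACT at 1 week (samples 1, 2 and 3), with 3 mice in each. The labels do not spell out Allo/Y and give no ages, every mouse carried the transgene and received a transfer, and no untreated mice are among the 12 arrays.

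Tissue macrophages live on signals through the CSF1 receptor, encoded by Csf1r, carry the surface receptor F4/80, encoded by Adgre1, and clear dying cells through receptors such as MERTK. Inflammatory monocytes are made in the bone marrow and carry Ly6C and the integrin chain CD11b, encoded by Itgam. After they enter inflamed tissue they can take on the F4/80 receptor and other macrophage features, and none of the 9 genes is limited to 1 cell type: Itgam is also expressed by neutrophils and natural killer cells, and Ly6c1 by endothelium and some T cells.

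Values are normalized log2 intensities, on which a difference of 1 is a doubling, and a change is given as a log2 difference ± SE from 1 limma model over all 12 arrays. A probe was called when its adjusted p, by the Benjamini-Hochberg method over all 23054 kept probes, was under 0.05. Between 18981 and 21718 of 45281 probes were above background per array. A pair of arrays stood apart from their groups: Tumor sample 6 had r of 0.9052 and 0.9303 within its group but 0.975 with sample 9, and Tumor+Allo/Y sample 8 had r of 0.9555 and 0.958 within its group but 0.9825 with sample 4. Results that rest on them are also given without them. Where an array left out lies outside the groups compared, the difference stays the same and only the shared estimate of the spread changes. Transcripts of epithelial markers were also present on the arrays, and whether they came from epithelial cells that passed the CD45 selection was not tested. Of 15 epithelial markers 13 were kept, and their mean level ranged from 10.69 to 11.33 at day 28, from 9.69 to 11.05 in Tumor+Allo/Y, from 8.03 to 10.98 in Tumor and from 11.87 to 12.57 in Allo/Y. Of these 13, 7 fell in Tumor+Allo/Y against Allo/Y and 0 rose, where 26.8% of all genes fell and 20.2% rose on their brightest probe. The secretory marker Pbsn was above background in Allo/Y alone. Genes expressed in all leukocytes, 20 of 20 kept, averaged 11.32 ± 0.16 at day 28, 11.31 ± 0.20 in Tumor+Allo/Y, 11.20 ± 0.27 in Tumor and 9.26 ± 0.12 in Allo/Y (SD, n = 3 each). In bulk RNA of this kind, fewer cells of a type and less RNA per cell cannot be told apart.

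The sequences just upstream of 4 of the genes are shown, because Itgam and Ly6c1 had the lowest means at day 28 relative to 1 week among the members, Aif1 had the largest rise among the macrophage markers, and Mertk did not rise. They are the 250 bases before the start site in RefSeq's promoter table for GRCm38.p6. There 6 of the 9 genes were matched, Adgre1 had no entry, and Csf1r and Cd14 were not looked up. Capitals mark matches, on either strand, to the PU.1 core GAGGAA or to an interferon element, written GAAA, any 2 bases, GAAA. PU.1 is a transcription factor of the myeloid lineage.
Itgam, chr7:128062390-128062639, plus strand: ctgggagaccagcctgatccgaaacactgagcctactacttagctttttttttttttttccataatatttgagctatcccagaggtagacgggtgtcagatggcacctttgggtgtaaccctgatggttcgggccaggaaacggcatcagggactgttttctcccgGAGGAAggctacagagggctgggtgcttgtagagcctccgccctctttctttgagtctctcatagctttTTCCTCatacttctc
Ly6c1, chr15:75048838-75049087, minus strand: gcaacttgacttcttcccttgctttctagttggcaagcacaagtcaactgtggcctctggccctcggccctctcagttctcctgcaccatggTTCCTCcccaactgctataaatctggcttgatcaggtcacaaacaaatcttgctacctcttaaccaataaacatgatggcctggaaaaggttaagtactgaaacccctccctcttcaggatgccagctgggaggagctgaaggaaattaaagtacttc
Aif1, chr17:35176053-35176302, minus strand: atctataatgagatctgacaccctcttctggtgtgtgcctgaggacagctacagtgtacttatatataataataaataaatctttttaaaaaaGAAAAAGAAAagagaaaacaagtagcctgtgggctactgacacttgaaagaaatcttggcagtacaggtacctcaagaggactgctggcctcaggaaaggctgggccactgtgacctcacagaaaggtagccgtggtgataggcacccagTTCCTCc
Mertk, chr2:128698665-128698914, plus strand: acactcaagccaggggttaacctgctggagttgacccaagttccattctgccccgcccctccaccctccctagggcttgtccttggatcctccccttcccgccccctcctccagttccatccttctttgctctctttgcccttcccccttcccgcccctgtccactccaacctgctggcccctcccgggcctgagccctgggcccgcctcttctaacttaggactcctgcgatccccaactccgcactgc
Itgam held 2 PU.1 matches, whose first bases lie at -84 and -15 from the start site. In Ly6c1 there was 1, at -158 (and 1 at -127 from its other annotated start), and in Aif1 there was 1 at -7 and 1 interferon element at -157. Mertk held neither, nor did Mpeg1 and Lyz2. Of all 32851 promoters in the table, 23.3% held the PU.1 core in such a window and 2.98% the interferon element, none of the 6 genes held the C/EBP pattern TTGCNNAA (9.56% of promoters), and no 2 matches overlapped. A match is a description of the letters only.

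Nearly every macrophage and monocyte marker was higher after either transfer with Tumor than after Allo/Y. In Tumor+Allo/Y against Allo/Y at 1 week, 15 of 17 probes were called higher and 0 lower, where 20.8% of all kept probes were called higher and 23.7% lower. For Tumor against Allo/Y the count was 14 of 17 higher and 0 lower, where 17.8% of all probes were higher and 19.1% lower. The dimmest probes of Aif1, Mpeg1 and Lyz2 were not above background on any Allo/Y array. They passed the filter through the other groups only, so the filter favoured a rise over Allo/Y on them. Those of Aif1 and Mpeg1 are among the 15, and that of Aif1 is among the 14. The median change of the 17 probes was 1.63 and 1.44 in these comparisons, and that of all probes was 0.02 and 0.03. By the brightest probe of each gene, 8 of 9 genes rose in both, and Mertk was the gene that did not. Both comparisons share the 3 Allo/Y arrays. A moderated F test over the 4 groups called 13 of the 17 member probes, 76.5%, where it called 42.9% of all probes.

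**Figure D1:**
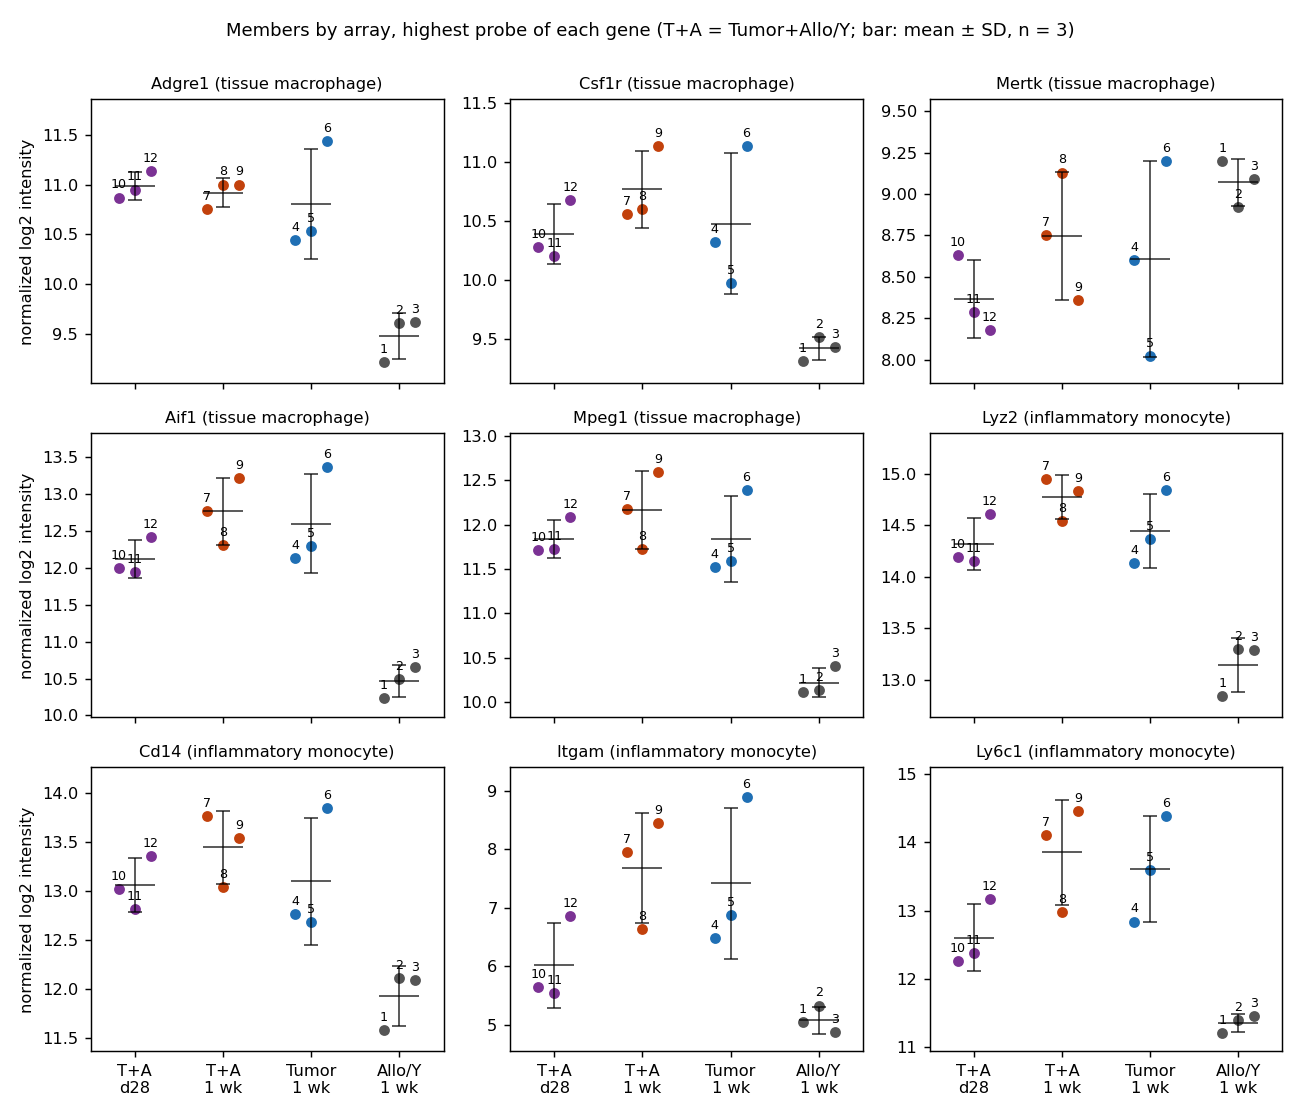
Normalized log2 intensity (y axis, each panel on its own range) of the brightest probe of each gene on the 12 arrays, which are marked by sample number, with bars for the mean ± SD of 3 arrays. In 8 of the 9 panels the 3 Allo/Y arrays lie below all other arrays, and in the Mertk panel they lie among the highest. The share of all genes that separate in this way was not computed, so the separation is only a description, here and for each gene below. By limma, which is another measure, 20.2% of all genes were called higher in Tumor+Allo/Y than in Allo/Y on their brightest probe. So were 20 of 20 genes expressed in all leukocytes.

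Adgre1 encodes F4/80, the classic surface marker of mouse macrophages. Its brightest probe read 10.87, 10.95 and 11.14 at day 28, 10.75, 11.00 and 11.00 in Tumor+Allo/Y, 10.44, 10.53 and 11.44 in Tumor, and 9.22, 9.61 and 9.62 in Allo/Y. Every array of the first 3 groups was above every Allo/Y array. Adgre1 rose by 1.43 ± 0.24 in Tumor+Allo/Y against Allo/Y (limma adjusted p = 0.0012), by 1.32 ± 0.24 in Tumor against Allo/Y (adjusted p = 0.00274) and by 1.5 ± 0.24 at day 28 against Allo/Y (limma adjusted p = 0.000804). The other 2 probes of Adgre1 gave 1.41 and 1.51 for the first of these, and 1.28 and 1.44 for Tumor, where the call of the dimmest was lost without Allo/Y sample 1 (adjusted p = 0.0513). At day 28 against 1 week of Tumor+Allo/Y the 3 probes moved by 0.07, -0.06 and -0.06, the smallest changes over time of any member.

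Csf1r encodes the receptor for the growth factor on which macrophages depend. The brighter of its 2 probes read 10.28, 10.20 and 10.68 at day 28, 10.56, 10.60 and 11.14 in Tumor+Allo/Y, 10.32, 9.97 and 11.14 in Tumor, and 9.31, 9.51 and 9.43 in Allo/Y. Allo/Y was again below the rest without overlap. The change in Tumor+Allo/Y against Allo/Y was 1.35 ± 0.28 (limma adjusted p = 0.00331) on this probe and 2.28 ± 0.29 (adjusted p = 0.000283) on the dimmer one, so the size of the rise depends on the probe. On the brighter one it was 1.06 in Tumor (limma adjusted p = 0.0142) and 0.97 at day 28 (limma adjusted p = 0.017), each against Allo/Y. Both calls were lost without Allo/Y sample 1 (limma adjusted p = 0.051 and 0.0563), and that of day 28 also without sample 12 (adjusted p = 0.0665). Over time, the dimmer probe averaged 8.48 ± 0.28 at day 28 and 9.20 ± 0.43 at 1 week of Tumor+Allo/Y (SD, n = 3 each), a change of -0.72 ± 0.29 that was not called (limma adjusted p = 0.209).

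Aif1 encodes IBA1, a calcium-binding protein of macrophages and microglia. On its brightest probe the arrays read 11.99, 11.94 and 12.41 at day 28, 12.77, 12.31 and 13.21 in Tumor+Allo/Y, 12.13, 12.29 and 13.36 in Tumor, and 10.23, 10.49 and 10.66 in Allo/Y. The gap between Allo/Y and the other groups was over 1 log2 unit. Aif1 rose by 2.31 ± 0.32 in Tumor+Allo/Y (limma adjusted p = 0.000461), by 2.13 ± 0.32 in Tumor (limma adjusted p = 0.001) and by 1.66 ± 0.32 at day 28 (limma adjusted p = 0.00235), each against Allo/Y. Its dimmest probe, ILMN_1218123, was not above background on any Allo/Y array, averaged 6.56 in Tumor+Allo/Y and 4.76 in Allo/Y, and was at least 2.96-fold higher in Tumor+Allo/Y (limma adjusted p = 0.0202), a call lost in turn without Allo/Y sample 1 or 3 or Tumor+Allo/Y sample 7 or 9 (adjusted p 0.0536 to 0.0746). Against Allo/Y it was at least 2.65-fold higher in Tumor (limma adjusted p = 0.0355, and 0.075 to 0.0862 without any 1 of samples 1, 2, 3 and 6; the bound is 1.61-fold without Tumor sample 6) and at least 1.89-fold higher at day 28 (limma adjusted p = 0.109, and 0.0117 without Tumor sample 6). Such a bound sets the brighter group's mean against the lowest signal among probes above background on each array of the dimmer group.

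Mpeg1 encodes perforin-2, a pore-forming protein by which macrophages damage engulfed bacteria. The brighter of its 2 probes read 11.71, 11.72 and 12.09 at day 28, 12.18, 11.72 and 12.59 in Tumor+Allo/Y, 11.52, 11.59 and 12.39 in Tumor, and 10.11, 10.14 and 10.41 in Allo/Y. None of the Allo/Y arrays reached the other groups. The rise over Allo/Y was 1.94 ± 0.27 in Tumor+Allo/Y (limma adjusted p = 0.000404), 1.62 ± 0.27 in Tumor (limma adjusted p = 0.00152) and 1.62 ± 0.27 at day 28 (limma adjusted p = 0.000871). The dimmer probe, ILMN_2539511, was not above background on any Allo/Y array. It averaged 6.26 in Tumor+Allo/Y and 4.64 in Allo/Y and was at least 2.41-fold higher in Tumor+Allo/Y (limma adjusted p = 0.0146, and 0.0529 or 0.0598 without Tumor+Allo/Y sample 7 or 9), while its change in Tumor against Allo/Y missed the threshold (limma adjusted p = 0.0995, above background on 2 of 3 Tumor arrays). At day 28 it was at least 1.68-fold higher than in Allo/Y (limma adjusted p = 0.0721, and 0.0231 or 0.0412 without Tumor sample 6 or Tumor+Allo/Y sample 8).

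Mertk, the receptor kinase that binds dying cells through bridging proteins, stood apart from the other members. Its 1 probe read 8.63, 8.29 and 8.18 at day 28, 8.75, 9.13 and 8.36 in Tumor+Allo/Y, 8.6, 8.02 and 9.20 in Tumor, and 9.20, 8.92 and 9.09 in Allo/Y. The day 28 arrays were all below the Allo/Y arrays, whereas Tumor+Allo/Y and Tumor overlapped with Allo/Y. The change from Allo/Y was -0.32 ± 0.28 in Tumor+Allo/Y (limma adjusted p = 0.385), -0.46 ± 0.28 in Tumor (adjusted p = 0.225) and -0.70 ± 0.28 at day 28 (adjusted p = 0.0685), and none was called. Without Tumor sample 6 the Tumor change became -0.76 (limma adjusted p = 0.0442) and the day 28 change was called (-0.70, adjusted p = 0.0232). The day 28 change was also called without Tumor sample 5 (limma adjusted p = 0.037) and with the epithelial mean as a covariate (-0.90, limma adjusted p = 0.0351).

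Lyz2 encodes the lysozyme of macrophages, monocytes and granulocytes and is the gene most used to drive Cre in myeloid cells. Its brightest probe read 14.19, 14.15 and 14.61 at day 28, 14.95, 14.54 and 14.83 in Tumor+Allo/Y, 14.13, 14.37 and 14.84 in Tumor, and 12.84, 13.30 and 13.29 in Allo/Y. Raw signals of this probe reached 32425, and ran from 14.9% to 89.1% of the highest signal on the array. Lyz2 rose by 1.63 ± 0.22 on it in Tumor+Allo/Y against Allo/Y (limma adjusted p = 0.000368) and by 2.50 ± 0.28 on the second probe (limma adjusted p = 0.000154), which lay further from the top of the scale at 2.38% to 23.5% of the array maximum. The dimmest probe, ILMN_2766780, was not above background in Allo/Y. It averaged 6.07 in Tumor+Allo/Y and 4.52 in Allo/Y, at least 2.12-fold higher, and missed the threshold (limma adjusted p = 0.0552), which it passed without Tumor sample 4 or 6 or Tumor+Allo/Y sample 8 (adjusted p 0.00335 to 0.0423). In Tumor against Allo/Y the brightest probe rose by 1.31 and the second by 1.79 (limma adjusted p = 0.00171 and 0.00124), and at day 28 they rose by 1.17 and 2.03 (limma adjusted p = 0.00184 and 0.000327).

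Cd14 encodes a co-receptor that hands bacterial lipopolysaccharide to TLR4. The arrays read 13.02, 12.82 and 13.36 at day 28, 13.77, 13.04 and 13.54 in Tumor+Allo/Y, 12.77, 12.69 and 13.85 in Tumor, and 11.58, 12.12 and 12.09 in Allo/Y. All 9 arrays of the first 3 groups were above the Allo/Y arrays. Cd14 rose by 1.52 ± 0.32 in Tumor+Allo/Y (limma adjusted p = 0.00352), by 1.17 ± 0.32 in Tumor (limma adjusted p = 0.0162) and by 1.13 ± 0.32 at day 28 (limma adjusted p = 0.015), each against Allo/Y. The Tumor and day 28 calls were lost without Allo/Y sample 1 (limma adjusted p = 0.066 and 0.0623), and the day 28 call also without sample 12 (adjusted p = 0.0583).

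Itgam encodes CD11b, the alpha chain of the integrin by which monocytes and neutrophils adhere and take up complement-coated particles. Its probe read 5.65, 5.54 and 6.86 at day 28, 7.96, 6.64 and 8.45 in Tumor+Allo/Y, 6.49, 6.88 and 8.90 in Tumor, and 5.04, 5.33 and 4.87 in Allo/Y, where it was above background on 2 of 3 arrays. Allo/Y was the lowest group without overlap, and the day 28 arrays overlapped with Tumor+Allo/Y through sample 12. Itgam rose by 2.60 ± 0.63 in Tumor+Allo/Y (limma adjusted p = 0.00775) and by 2.34 ± 0.63 in Tumor (limma adjusted p = 0.0163), each against Allo/Y, and the rise in Tumor missed the threshold without Allo/Y sample 3 (adjusted p = 0.0524) and was 1.60 without Tumor sample 6 (adjusted p = 0.0377). With the epithelial mean of each array as a covariate neither was called, at 0.88 in Tumor+Allo/Y (limma adjusted p = 0.114) and 0.42 in Tumor (limma adjusted p = 0.547). The day 28 difference from Allo/Y, 0.94 ± 0.63, was not called (limma adjusted p = 0.259). It was called without samples 6 and 8 together (limma adjusted p = 0.0312), which lie outside both groups and change only the shared spread. Markers of natural killer cells, which also carry Itgam, were higher in Tumor+Allo/Y against Allo/Y for 5 of 5 genes kept. On the brightest probe 20.2% of all genes were called higher there, and so were 20 of 20 genes expressed in all leukocytes. The part of natural killer cells in the Itgam change was not tested.

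Ly6c1 encodes a Ly6C protein and was taken here as a marker of inflammatory monocytes, though endothelium and some T cells express it. Ly6c1 and its neighbour Ly6c2 are near-identical, Ly6c2 was not analysed here, and whether the probe also reads it was not tested. The probe read 12.26, 12.38 and 13.17 at day 28, 14.11, 12.98 and 14.46 in Tumor+Allo/Y, 12.84, 13.60 and 14.39 in Tumor, and 11.21, 11.40 and 11.46 in Allo/Y. Again Allo/Y was lowest without overlap, and sample 12 was the one day 28 array within the range of Tumor+Allo/Y. Ly6c1 rose by 2.50 ± 0.44 in Tumor+Allo/Y (limma adjusted p = 0.00142), by 2.26 ± 0.44 in Tumor (limma adjusted p = 0.00351) and by 1.25 ± 0.44 at day 28 (limma adjusted p = 0.0404), each against Allo/Y. The day 28 call was lost in 8 of 12 fits that left out 1 array. Of endothelial markers 13 of 13 were kept, and 10 of them fell in Tumor+Allo/Y against Allo/Y and 0 rose, beside 26.8% and 20.2% of all genes. Their mean was 6.30 ± 0.15 in Tumor+Allo/Y and 7.58 ± 0.60 in Allo/Y (SD, n = 3 each). T cell markers were higher for 7 of 7 genes kept, as were 20 of 20 genes expressed in all leukocytes. The part of endothelium or T cells in the Ly6c1 change was not tested.

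**Figure D2:**
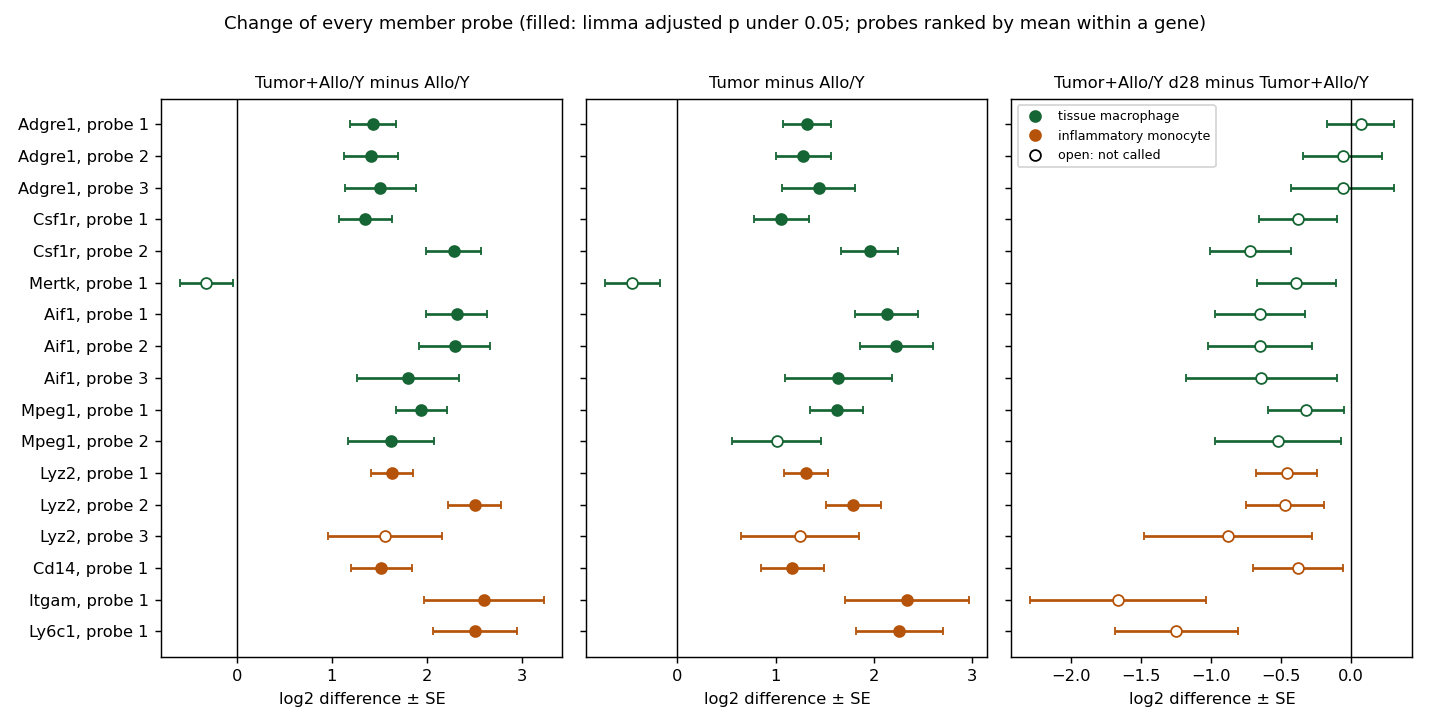
Log2 difference ± SE (x axis) of each of the 17 probes in 3 comparisons, filled where the limma adjusted p is under 0.05, with probes of a gene in order of brightness. In both comparisons with Allo/Y all probes except that of Mertk lie right of 0, and over time no probe is filled.

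The combined transfer was set against Tumor alone to ask what adding Allo/Y did to these genes. All 17 probes had slightly higher means in Tumor+Allo/Y than in Tumor, by 0.06 to 0.71. Their median was 0.26, where that of all probes was -0.03. By limma 0 were called, where 0.00434% of all probes were called, a single probe without a gene name. The smallest p of a member belonged to the second probe of Lyz2, which averaged 12.64 ± 0.34 in Tumor+Allo/Y and 11.93 ± 0.61 in Tumor (SD, n = 3 each), a change of 0.71 ± 0.28 with an unadjusted limma p of 0.0288 and an adjusted p of 1. It was 1 of the 17 member probes, and 989 of all probes, at an unadjusted p under 0.05. Sample 6 was the highest Tumor array and sample 8 the lowest Tumor+Allo/Y array for most members, so leaving both out widens the gap by construction. Without them 9 of 17 probes were called higher, where 1713 of all 23054 probes were. In either direction 17.4% of all probes were called. Among the 9 were Itgam with 1.52 (limma adjusted p = 0.0278), Ly6c1 with 1.07 (limma adjusted p = 0.046) and Cd14 with 0.93 (limma adjusted p = 0.0225).

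Day 28 was compared with 1 week of Tumor+Allo/Y to follow the genes in time. Means were lower at day 28 for 16 of 17 probes, with a median change of -0.47 where that of all probes was 0, yet 0 were called by limma, where 2.65% of all probes were called. Over the same time T cell markers had a median change of 1.41 (4 of 7 higher, 0 lower) and natural killer markers one of -0.82 (0 of 5 higher, 1 lower). On the brightest probe 2.41% of all genes were called in either direction. The mean of genes of all leukocytes moved by 0, and the part of other cells in the members' values was not tested. Itgam averaged 6.02 ± 0.74 at day 28 and 7.68 ± 0.94 at 1 week (SD, n = 3 each), and its change of -1.67 ± 0.63 had an adjusted p of 0.185 by limma. Ly6c1 averaged 12.60 ± 0.49 at day 28 and 13.85 ± 0.77 at 1 week, a change of -1.25 ± 0.44 (limma adjusted p = 0.155). The 3 probes with an unadjusted limma p under 0.05 were those of Itgam and Ly6c1 and the dimmer one of Csf1r. The values of Adgre1, 10.99 ± 0.14 at day 28 and 10.92 ± 0.14 at 1 week (SD, n = 3 each), lay within each other's spread. Sample 8 was the lowest Tumor+Allo/Y array for most members, so leaving it out widens the gap to day 28 by construction. Sample 6 is in neither group, so leaving it out changes only the shared spread. Without Tumor+Allo/Y sample 8 alone, Ly6c1 was called lower at day 28 (-1.69, limma adjusted p = 0.0496). Without samples 6 and 8 together 8 of 17 probes were called lower, where 2606 of all 23054 probes were. In either direction 22.5% of all probes were called. Among the 8 were Itgam with -2.19 (limma adjusted p = 0.00404) and Ly6c1 with -1.69 (limma adjusted p = 0.00484).

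Day 28 was also set against both single transfers, where time and transfer differ together. Against Allo/Y 12 of 17 probes were higher and 0 lower, where 19.9% of all probes were higher and 21.8% lower, with a median change of 1.25. Of the 9 genes 7 rose on their brightest probe, all except Itgam and Mertk. Against Tumor 0 of 17 were called, where 2.99% of all probes were. The lowest values there were those of Itgam, -1.41 ± 0.63, and Ly6c1, -1.01 ± 0.44 (limma adjusted p = 0.239 and 0.221).

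Setting macrophage markers against monocyte markers, the level of each brightest probe was centred on its mean over the 12 arrays and averaged within each set of genes. The macrophage set stood at 0.14 ± 0.15 at day 28, 0.47 ± 0.16 in Tumor+Allo/Y, 0.26 ± 0.56 in Tumor and -0.87 ± 0.11 in Allo/Y (SD, n = 3 each). The monocyte set stood at -0.11 ± 0.43, 0.82 ± 0.56, 0.53 ± 0.75 and -1.24 ± 0.19 in the same order. The mean of the monocyte set thus covered the wider range, but its genes did not all do so. In Tumor+Allo/Y against Allo/Y, Itgam and Ly6c1 rose by 2.60 and 2.50, and Lyz2 and Cd14 by 1.63 and 1.52. Of the macrophage markers, Aif1 and Mpeg1 rose by 2.31 and 1.94, Adgre1 and Csf1r by 1.43 and 1.35, and Mertk changed by -0.32. Macrophage minus monocyte, the difference on single arrays was 0.43, 0.41 and -0.08 at day 28, -0.68, 0.17 and -0.55 in Tumor+Allo/Y, 0.06, -0.39 and -0.47 in Tumor, and 0.46, 0.21 and 0.43 in Allo/Y. All 3 Allo/Y arrays lay above all Tumor arrays and all Tumor+Allo/Y arrays, and day 28 overlapped with every group. Mertk made much of the Allo/Y value: without it the difference was 0.37 ± 0.22 at day 28, -0.25 ± 0.37 in Tumor+Allo/Y, -0.18 ± 0.24 in Tumor and 0.06 ± 0.10 in Allo/Y, and the Allo/Y arrays then overlapped with Tumor and Tumor+Allo/Y. No test was made of this difference, since the genes were chosen with results known.

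**Figure D3:**
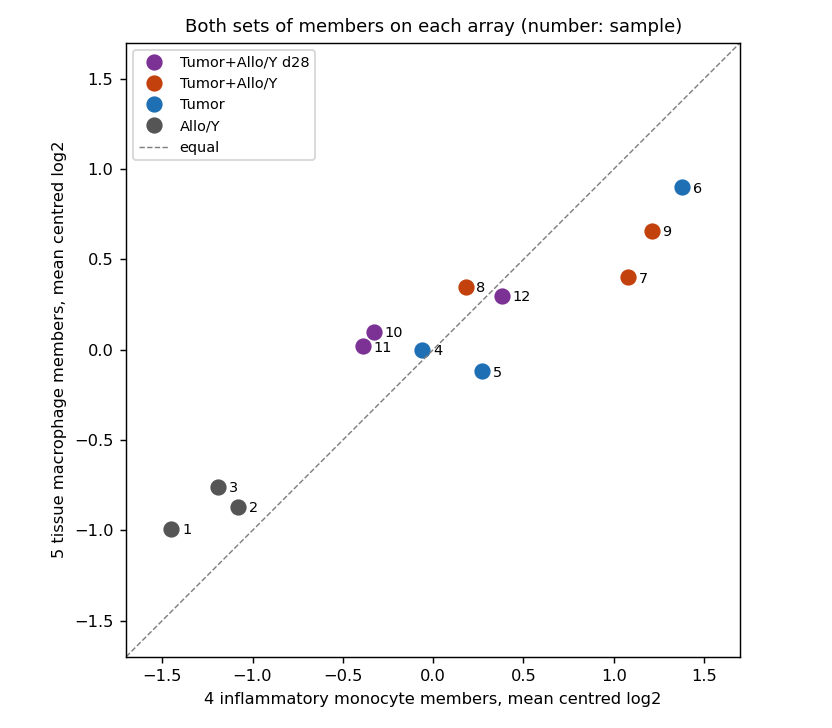
Mean centred log2 intensity of the 4 monocyte markers (x axis) against that of the 5 macrophage markers (y axis) on each array, marked by sample number, with a dashed line where both are equal. The 3 Allo/Y arrays lie lower left and above the line, and samples 6, 7 and 9 lie upper right and below it.

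Set against genes expressed in all leukocytes, no member was called higher than in Allo/Y, and few of all probes were. These genes were higher by a mean of 2.05 in Tumor+Allo/Y, 1.94 in Tumor and 2.06 at day 28, each against Allo/Y. In all 3 comparisons 20 of 20 rose, where 20.8%, 17.8% and 19.9% of all probes were called higher. When each array was shifted to the same mean of these 20 genes, 0 of 17 member probes were higher and 6 were lower in Tumor+Allo/Y against Allo/Y, 7 were lower in Tumor and 10 at day 28. Since the shift moves all probes, 92.4%, 92.9% and 92.5% of all probes were called lower on this scale, with medians of -2.03, -1.91 and -2.05. Only 1.1%, 0.833% and 1.29% of all probes were called higher, so 0 of 17 members higher is near the share of all probes. Relative to the leukocyte genes, Aif1 stood at 0.25 ± 0.23 and Ly6c1 at 0.45 ± 0.35 in Tumor+Allo/Y against Allo/Y, and neither was called (limma adjusted p = 0.309 and 0.227). Adgre1, by contrast, was lower by this measure, at -0.62 ± 0.21 (limma adjusted p = 0.0137), as was Csf1r at -0.70 ± 0.22 on its brighter probe (limma adjusted p = 0.0106), while its dimmer probe stood at 0.22 ± 0.20 and was not called (limma adjusted p = 0.308). Mertk had the lowest value of the members, near the median of all probes, with 8.21 ± 0.57 in Tumor+Allo/Y and 10.58 ± 0.26 in Allo/Y (SD, n = 3 each) and a change of -2.37 ± 0.30 (limma adjusted p = 1.14e-05). With the epithelial mean of each array as a covariate, 11 of 17 probes were called higher in Tumor+Allo/Y against Allo/Y, where 11.8% of all probes were, and 6 in Tumor against Allo/Y, where 7.89% were. The calls lost in that fit were those of Itgam and the dimmest probes of Adgre1, Aif1 and Mpeg1 in Tumor+Allo/Y. In Tumor they were those of Itgam, Ly6c1, Cd14, all 3 probes of Adgre1, the brighter probe of Csf1r and the dimmest probe of Aif1.

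**Figure D4:**
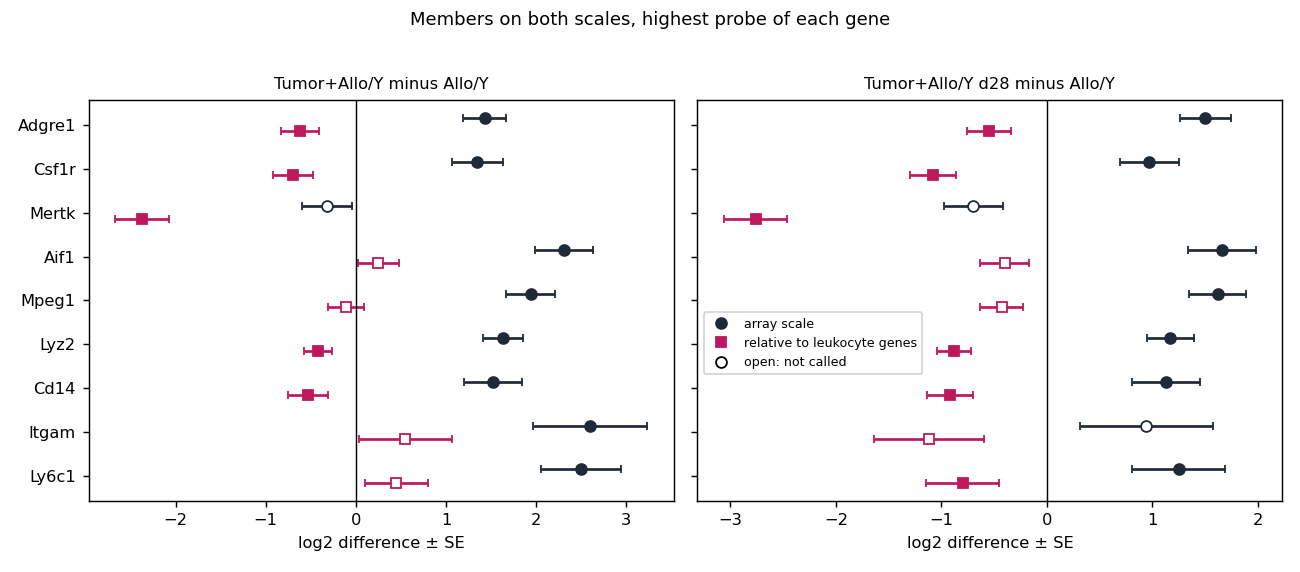
Log2 difference ± SE (x axis) of the brightest probe of each gene in Tumor+Allo/Y (left) and at day 28 (right), each against Allo/Y, on the array scale (circles) and relative to 20 genes expressed in all leukocytes (squares), filled where the limma adjusted p is under 0.05. Circles lie right of 0 for all genes except Mertk, and most squares lie left of it.

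Further genes of both cell types were read on the brightest probe, on which 20.2% of all 11971 genes were called higher and 26.8% lower in Tumor+Allo/Y against Allo/Y. Of 19 kept genes listed for inflammatory monocytes, 17 rose in Tumor+Allo/Y against Allo/Y and 0 fell, with a median change of 2.66. Of 23 kept genes listed for tissue macrophages 10 rose and 0 fell, with a median of 0.86, while the median of all genes was -0.04. Neither list is limited to its cell type, and the part of other cells or of activation in these changes was not tested. Chil3, a chitinase-like protein of activated monocytes and macrophages, read 13.33, 11.12 and 11.57 in Tumor+Allo/Y against 5.66, 5.65 and 5.63 in Allo/Y, a rise of 6.36 ± 0.67 (limma adjusted p = 0.000113). Fcgr4, an activating Fc receptor, rose by 3.74, and Ccl7, a chemokine that draws monocytes through CCR2, rose by 2.12 (limma adjusted p = 8.96e-05 and 0.000133). Among macrophage genes, the complement subunits C1qa and C1qb rose by 1.35 and 1.32 and the costimulatory ligand Cd86 by 2.40 (limma adjusted p = 0.000354, 0.000347 and 0.000106). Over time 0 of the 19 listed monocyte genes were called at day 28 against 1 week, where 2.41% of all genes were in either direction. All 19 had lower means (median -1.03, where that of all genes was 0), but they were read on the same arrays and are not separate observations. The share of all genes with lower means was not computed. Chil3 read 8.90, 8.57 and 10.12 at day 28 (limma adjusted p = 0.0572). Of the 23 macrophage genes 1 was called, Timd4, a receptor for phosphatidylserine on dying cells, which fell by 1.73 on the log2 scale to 5.11, 5.42 and 6.59 at day 28, against 8.12, 7.38 and 6.82 at 1 week (limma adjusted p = 0.0498). Neutrophils also express Itgam and Lyz2, and their markers moved too: 8 of 13 were kept, their mean was 7.82 ± 0.22 at day 28, 8.75 ± 0.46 in Tumor+Allo/Y, 7.99 ± 1.15 in Tumor and 7.47 ± 0.17 in Allo/Y (SD, n = 3 each), Ngp was not above background on any array of 3 of the 4 groups and Camp on none in Tumor, and their part in the changes of Itgam and Lyz2 was not tested.

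**Figure D5:**
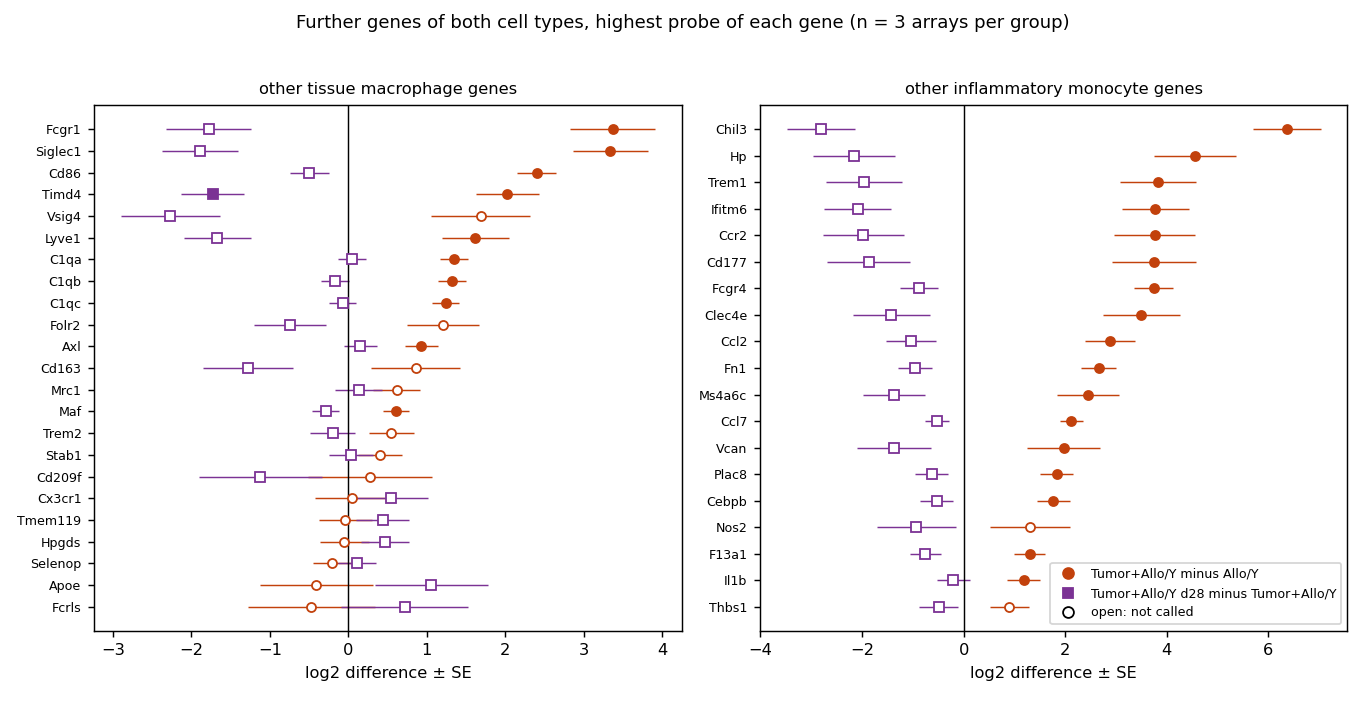
Log2 difference ± SE (x axis) of further macrophage genes (left) and monocyte genes (right) in Tumor+Allo/Y against Allo/Y (circles) and day 28 against 1 week of Tumor+Allo/Y (squares), filled where the limma adjusted p is under 0.05. Circles of the monocyte genes reach 6.36 and all lie right of 0, and the only filled square is Timd4.

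Partners of the members followed them to different degrees. Around the CSF1 receptor, 12 of 15 kept genes rose in Tumor+Allo/Y against Allo/Y and 0 fell, beside 20.2% and 26.8% of all genes. The ligand Csf1 rose by 1.22 ± 0.40 (limma adjusted p = 0.0302), and read 8.17, 7.56 and 7.46 at day 28, 7.16, 6.21 and 7.44 in Tumor+Allo/Y, 6.12, 6.90 and 7.74 in Tumor, and 5.62, 5.73 and 5.80 in Allo/Y. The transcription factor Irf8 and the signaling adaptor Tyrobp rose by 2.63 and 2.24, and the docking protein Dok2 by 3.34 (limma adjusted p = 5.95e-05, 0.000398 and 4.38e-05). Runx1, a factor of blood cell development, moved by 0.49 on its brightest probe (limma adjusted p = 0.0855) and by 1.49 on its other (adjusted p = 0.00134).

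Around Mertk, 4 of 13 genes for clearing dying cells rose and 4 fell in Tumor+Allo/Y against Allo/Y, shares near those of all genes, 20.2% and 26.8%. Its relative Axl rose by 0.93 ± 0.21 (limma adjusted p = 0.00516), and its relative Tyro3 fell by 1.46 on the log2 scale (limma adjusted p = 0.00316), with signal over background on a single Tumor+Allo/Y array. Of the bridging ligands, Pros1 rose by 0.71 (limma adjusted p = 0.00596). Gas6 read 9.74, 10.61 and 9.18 in Tumor+Allo/Y against 11.29, 11.05 and 11.20 in Allo/Y, a change of -1.33 ± 0.52 that was not called (limma adjusted p = 0.0589), and it fell by 1.73 in Tumor against Allo/Y (limma adjusted p = 0.0256). The cytoskeletal regulator Elmo1 rose by 0.65 on its brightest probe (limma adjusted p = 0.00336) and on all 12 of its probes. Itgav, an integrin chain that binds dying cells through a bridge, changed by 1.33 on its brightest probe at day 28 against 1 week (limma adjusted p = 0.0744), and 1 of its dimmer probes, ILMN_1238119, rose by 1.42 (adjusted p = 0.00951), while the other 3 moved by -0.05 to 0.56 and were not called.

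In the receptor complex that CD14 serves, 5 of 10 genes rose and 1 fell in Tumor+Allo/Y against Allo/Y, beside 20.2% and 26.8% of all genes. Tlr4 itself read 8.96, 8.43 and 9.12 in Tumor+Allo/Y against 8.39, 8.67 and 8.40 in Allo/Y, and its change of 0.35 ± 0.26 was not called (limma adjusted p = 0.301), nor was that of its partner Ly96, 0.23 (adjusted p = 0.555). The related receptor Cd180 and its partner Ly86 rose by 3.10 and 2.35 (limma adjusted p = 0.000237 and 0.000116). The adaptor Tirap fell by 0.73 in Tumor+Allo/Y against Allo/Y (limma adjusted p = 0.00376) and by a further 0.84 on the log2 scale at day 28 against 1 week (limma adjusted p = 0.0241), where its other 3 probes had adjusted p values of 0.0648 to 0.108.

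Among the integrins, Itgb2, the beta chain that pairs with CD11b, read 8.6, 7.72 and 9.07 in Tumor+Allo/Y against 5.89, 5.93 and 5.81 in Allo/Y, a rise of 2.59 ± 0.36 (limma adjusted p = 0.000434). Itgal, the alpha chain of the lymphocyte integrin, rose by 2.94, and the adhesion ligands Icam1 and Icam2 by 1.81 and 2.08 (limma adjusted p = 1.84e-05, 0.000108 and 0.000349). At day 28 Itgb2 read 8.19, 8.11 and 8.47, a change of -0.21 ± 0.36 from 1 week, beside -1.67 for Itgam. In all, 6 of 8 kept genes of the integrin list rose and 0 fell in Tumor+Allo/Y against Allo/Y, beside 20.2% and 26.8% of all genes. Itgax, the alpha chain CD11c, did not pass on its brightest probe (0.35, limma adjusted p = 0.174) and rose by 0.77 on its other, ILMN_2727172 (limma adjusted p = 0.00523). Of 4 kept genes of the Ly6 cluster around Ly6c1, 0 rose and 1 fell, Gpihbp1, an endothelial protein that holds lipoprotein lipase, by 0.94 on the log2 scale (limma adjusted p = 0.0115). Ly6e and Ly6d moved by -0.03 and 0.15. The probes of Ly6f disagreed, with 1.51 ± 0.80 on the brightest (limma adjusted p = 0.143) and a fall of 1.18 on the log2 scale on the other, ILMN_2809589 (limma adjusted p = 0.000554).

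Beside lysozyme and perforin-2, 6 of 9 antimicrobial genes rose and 1 fell in Tumor+Allo/Y against Allo/Y, beside 20.2% and 26.8% of all genes. The itaconate-producing enzyme Acod1 rose by 4.73, and the oxidase subunits Ncf1 and Ncf4 by 3.05 and 2.95 (limma adjusted p = 0.00101, 0.00021 and 0.000138). Lyz1, the close paralog of Lyz2, is a case where probes disagree. Its brightest probe read 14.50, 14.73 and 14.55 in Tumor+Allo/Y against 14.13, 14.41 and 14.36 in Allo/Y, a change of 0.30 that was not called (limma adjusted p = 0.0827), and its other 2 probes rose by 2.44 and 2.47 (limma adjusted p = 0.00057 and 0.000507). Whether probes of Lyz1 and Lyz2 read each other's RNA was not tested. The gene that fell, Lyzl4, a lysozyme-like protein of the male reproductive tract, was not above background in Tumor+Allo/Y and was at least 2.19-fold lower there than in Allo/Y (limma adjusted p = 0.000176).

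The 12 arrays were last read for the genes whose pattern was most like that of each member, by Pearson r over the arrays, given as a description because the arrays fall into Allo/Y and the rest. Mertk had r between -0.432 and -0.148 with the other 8 members, whose r among themselves ran from 0.724 for Adgre1 and Itgam to 0.982 for Aif1 and Mpeg1. Taken as deviations from the group means, Mertk had r from -0.161 with Ly6c1 to 0.455 with Adgre1. Without Mertk, pairs of macrophage markers ran from 0.706 for Adgre1 and Mpeg1 to 0.982 for Aif1 and Mpeg1. Pairs of monocyte markers ran from 0.803 for Cd14 and Ly6c1 to 0.941 for Itgam and Ly6c1. Pairs of a macrophage and a monocyte marker ran from 0.592 for Adgre1 and Ly6c1 to 0.937 for Aif1 and Itgam. These ranges overlapped, so the r values did not separate the macrophage set from the monocyte set. Aif1, for example, had 0.937 with Itgam and 0.917 with Ly6c1, but 0.805 with Adgre1. The nearest genes outside the members were Ms4a6b (0.985) for Adgre1, Clec4a3 (0.98) and Sirpa (0.979) for Csf1r, Gm4951 (0.996) and Cyba (0.995) for Aif1, and Gsdmd (0.993) and Itgb2 (0.989) for Mpeg1. For the monocyte markers they were Slfn2 (0.993) and Zeb2 (0.992) for Lyz2, Stim2 (0.982) for Cd14, Prm1 and Adssl1 (both 0.993) for Itgam, and Psmb10 (0.995) and Trafd1 (0.994) for Ly6c1. Dpp7 (0.943) and Napg (0.907) were nearest to Mertk.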

How the data were processed

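Total RNA of CD45+ prostate cells was extracted with Trizol, amplified to biotinylated cRNA and hybridised to Illumina bead arrays, per the labels' protocols. The deposited raw table held a linear probe intensity for each array and a detection p-value for each probe, per the file headers, and GenomeStudio is named in the submitters' processing notes without a version. The authors' normalized table, also linear intensity and with a shared maximum of 35863.8, served as an alternative. Genome build and chip annotation version were not given in the sources used here. Of 45281 probes, 34885 had 1 gene symbol, 18 had several and 10378 were not listed, and 34807 of 34903 listed probes were matched by gene ID.

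With R 4.3.3 and limma 3.58.1, neqc estimated the background through those p-values, then applied an offset (16), quantile normalization and log2. Probes with detection p under 0.05 on at least 3 of 12 arrays (23054) entered 1 linear model of the 4 groups with moderated variances (8 residual and 2.74 prior degrees of freedom), and 6 contrasts were each adjusted by Benjamini-Hochberg. Fits were tested on simulated data. The 3 arrays per group limit precision.

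The members and gene lists were chosen with earlier results of these data known. Named genes were the members, the genes of each list with the smallest p in 2 contrasts, binding partners and paralogs, and the 2 genes most like each member. The alternatives were the filter, normalization, offset, variance model, array weights, probe choice, a minimum fold, leukocyte scaling, an epithelial covariate, fewer arrays and each array left out.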

Additional observations from a re-analysis of the deposited data

How the results depend on the processing

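No paired analysis was possible because the sample numbers 1 to 12 are not shared between groups. Of 17 member probes, with a minimum fold of 1.5 the share called was 52.9% for Tumor+Allo/Y, 35.3% for Tumor and 29.4% for day 28, each against Allo/Y, where all probes gave 11.9%, 6.73% and 11.6%. Scaled to leukocyte genes it was 35.3% for Tumor+Allo/Y and 41.2% for Tumor, each against Allo/Y, where all probes gave 93.5% and 93.8%. With the epithelial covariate it was 35.3% for Tumor against Allo/Y and 5.88% for day 28 against Tumor, where all probes gave 13.1% and 10.6%. With array weights it was 82.4% for Tumor+Allo/Y against Tumor and 41.2% for day 28 against both 1 week Tumor+Allo/Y and Tumor, where all probes gave 25.2%, 17.3% and 35.5%, from weights of 0.126 for sample 6 to 67.2 for sample 5, whose estimate stopped before convergence. Without samples 6 and 8 it was 52.9% for Tumor+Allo/Y against Tumor and 47.1% for day 28 against 1 week, where all probes gave 17.4% and 22.5%. With 1 array left out in turn, the share ran from 76.5% to 94.1% for Tumor+Allo/Y, 58.8% to 88.2% for Tumor and 52.9% to 88.2% for day 28, each against Allo/Y, and from 0% to 5.88% for day 28 against 1 week. The difference between macrophage and monocyte markers changed by -0.98 to -0.56 for Tumor+Allo/Y against Allo/Y and by 0.44 to 0.87 for day 28 against 1 week in these fits. Array weights were the alternative that called most members for Tumor+Allo/Y against Tumor, and the cause of these shifts was not tested.

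Leukocyte scaling turned 33 changes, called on either scale, from higher to lower, because it subtracts the leukocyte shift from every probe. Against Allo/Y, the values in Tumor+Allo/Y, Tumor and day 28 were -0.62, -0.62 and -0.55 for Adgre1 ILMN_1216880, -0.54, -0.50 and -0.60 for ILMN_2756353, and -0.64, -0.66 and -0.71 for ILMN_2847787. They were -0.70, -0.88 and -1.08 for Csf1r ILMN_2710819, -0.53, -0.77 and -0.92 for Cd14, -0.42, -0.64 and -0.88 for Lyz2 ILMN_1252076, -0.11, -0.33 and -0.43 for Mpeg1 ILMN_1247377, and -0.43, -0.93 and -0.96 for ILMN_2539511. For Aif1 ILMN_1218123 they were -0.26 in Tumor+Allo/Y and -0.30 in Tumor, and for Lyz2 ILMN_2939681 -0.15 in Tumor and -0.02 at day 28. At day 28 alone they were -0.40 and -0.42 for Aif1 ILMN_1212938 and ILMN_2804487, -0.50 for Csf1r ILMN_1230485, -0.80 for Ly6c1 and -1.38 for Lyz2 ILMN_2766780.

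For all probes, shifting medians in place of quantile normalization gave 59.8% higher among those called in Tumor+Allo/Y against Allo/Y, where the main setting gave 46.8%. Fitting only the groups compared called 39 probes for day 28 against 1 week and 16 for day 28 against Tumor, where the main setting called 610 and 689. For single member probes, leaving out 1 array lost 26 calls, gained 11 and kept direction and side of the threshold in 1187 cases, though values moved.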
